A study of Rattus norvegicus with 8 samples.

Results

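The Wnt ligands, their receptors and the proteins that tune or relay the signal were followed in rat hippocampal neuronal cultures. Members were the rows of the authors' deposited comparison table whose symbol belongs to the Wnt, Fzd, Lrp5/Lrp6, Dkk, Sfrp, Rspo, Axin, Dvl, Nkd, Tcf7/Lef1, Porcn, Apc or Ctnnb1 names. The rule took 42 Ensembl genes with 41 symbols, of 13739 genes in that table and 32623 in the count tables. A further 17 symbols of the same families, among them Axin1, Wnt3a, Dkk1 and Fzd8, have no row in that table and were not analysed here. No member shares exon bases with another annotated gene. One of the 2 entries named Tcf7l2 (ENSRNOG00000013993) is a 465-base gene on the opposite strand from the other and apart from it on chromosome 1, so its symbol is uncertain.

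All cultures were wild-type cells of strain SD, collected on day 18 in vitro. In all, 4 libraries of polyadenylated RNA came from cultures given an NMDA receptor positive allosteric modulator (PAM), a compound that makes this glutamate-gated channel respond more to agonist, and 4 from cultures that received vehicle. Which compound was used, at what dose and for how long was not given in the sources used here, nor was the number of animals behind a culture. The comparison asks which transcripts differed after potentiation of the receptor. The labels do not say that replicates were separate cultures, so each p-value rests on a spread between samples that may be technical only.

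Wnt proteins are secreted ligands that need a lipid, added by the acyltransferase Porcupine (Porcn), to bind Frizzled receptors. With the co-receptors Lrp5 or Lrp6, a bound Frizzled engages Dishevelled (Dvl) and disables a complex of Apc, Axin and kinases that otherwise marks β-catenin (Ctnnb1) for destruction, and β-catenin then acts with Tcf and Lef factors on target genes. In the hippocampus the pathway is known for its part in patterning, neurogenesis and the assembly and plasticity of synapses.

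Libraries held 2960406 to 4389430 counts. PAM 3 and PAM 4 differed from the other 6 in that log2 counts, taken relative to the mean of the 8 libraries, declined with exonic length, at slopes of -0.0853 and -0.132 log2 units per doubling against 0.00524 to 0.0627. Neuronal identity was checked on 7 pan-neuronal markers (3 fell, 0 rose), whose summed level was 3660 to 4240 CPM (the count relative to the library's scaled total) in vehicle and 2900 to 3450 CPM in PAM libraries. Non-neuronal cells were present too: summed astrocyte markers (9 genes, 5 of which rose and 0 fell) were at 6280 to 6600 in vehicle and 9180 to 11200 CPM in PAM libraries, and ependymal markers (9 genes, 8 tested, 7 rose) at 60.4 to 93.6 and 234 to 375 CPM. Of 8 dividing-cell markers 7 rose, with sums of 184 to 219 and 389 to 543 CPM. Excitatory neuron markers (9 genes, 8 tested, 4 fell, 0 rose) summed to 1390 to 1640 CPM and 899 to 1020 CPM. In these bulk samples fewer cells of a type and less RNA per cell cannot be told apart.

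Wnt7b, the ligand gene with the highest level per kilobase, fell, the rare ligand Wnt8b rose, the receptors Fzd1 and Fzd2 rose, and Porcn, Lrp5 and Apc fell. Of the 33 members that passed the low-count filter, 3 rose and 4 fell (quasi-likelihood test of edgeR, p adjusted by Benjamini-Hochberg over all genes tested, under 0.05). That is 21.2% of the members tested, against 18.9% of all 11740 genes tested, 9.09% against 9.0% for increases and 12.1% against 9.89% for decreases. The share called was thus near the background and is not a result about the members. Their median log2 fold change was 0.14, beside 0.02 for all genes. Groups did not overlap for 6 members (18.2%, against 22.3% of all genes). The authors' deposited table also lists 7 members at an adjusted p under 0.05, and all 7 were the ones called here. The calls of Fzd1, Fzd2 and Apc were less stable, passing in 11, 12 and 11 of 17 alternative fits. The 4 calls that held in every alternative had, with PAM 3 and PAM 4 both omitted, log2 fold changes of -0.81 for Porcn, -0.65 for Wnt7b, -0.46 for Lrp5 and 1.89 for Wnt8b. For Porcn and Wnt7b, PAM 3 and PAM 4 are the PAM libraries nearest to the vehicle level. Their omission enlarges these falls in advance and lends them no support. Among the 4 calls, Wnt8b entered the test through the libraries where it is high, as given below.

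**Figure D1:**
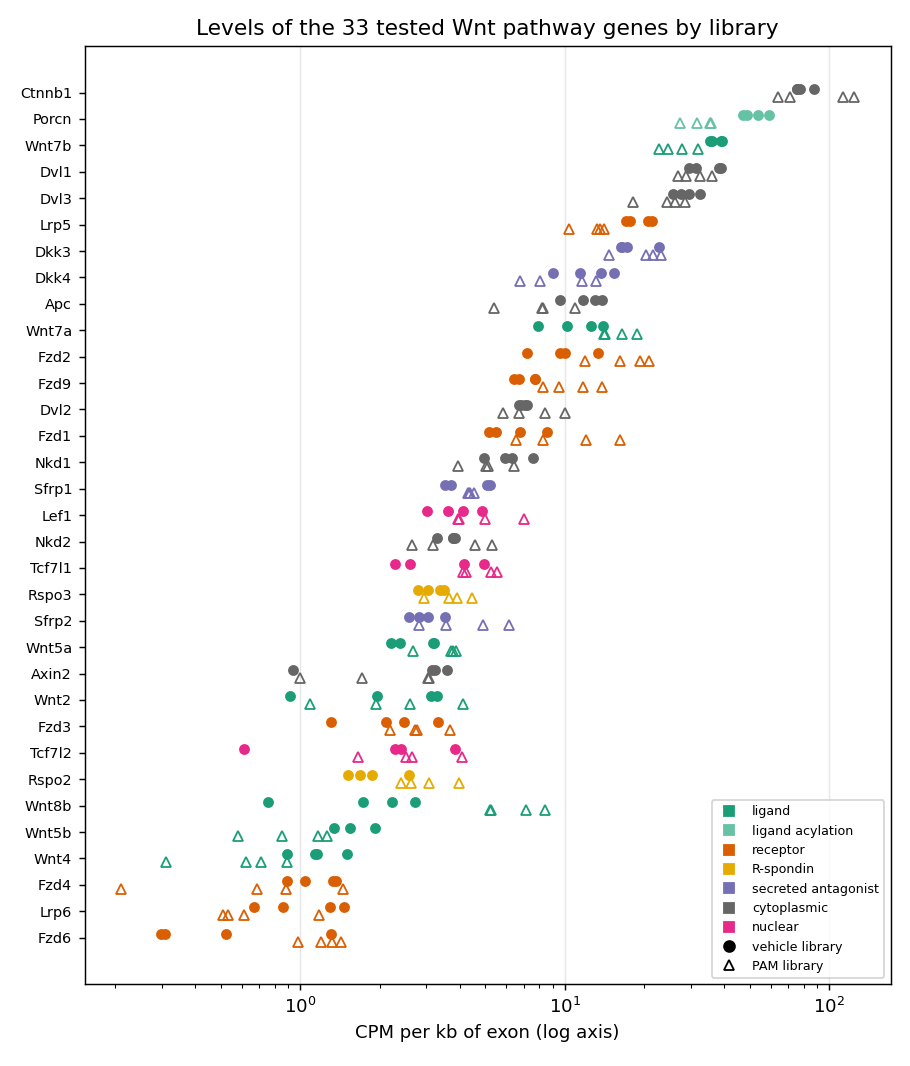
Levels of the 33 tested Wnt pathway genes in each library, as CPM per kilobase of exon on a log axis, ordered by the vehicle mean, with colours for the role. Filled circles are the 4 vehicle libraries and open triangles the 4 PAM libraries. The Wnt5b value of 0 in vehicle 4 cannot be drawn on this axis. Ctnnb1 and Porcn lead the order, and Wnt8b moves from the lower part of the order to the middle in PAM libraries.

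Levels were compared between genes per kilobase of exon. In vehicle libraries Ctnnb1 was the highest member, at 79.0 ± 5.77 CPM per kb (SD, n = 4), followed by Porcn at 52.3 ± 5.35 and Wnt7b at 37.4 ± 2.13. Porcn and Wnt7b did not overlap with each other or with Ctnnb1 over the vehicle libraries. Dvl1 (34.5 ± 4.86) and Dvl3 (28.7 ± 2.91) came next with ranges that overlapped, as did Lrp5 (19.2 ± 2.13) and the secreted protein gene Dkk3 (18.2 ± 3.04). The vehicle range of Dvl1 (29.45 to 39.0) also overlapped that of Wnt7b (35.35 to 39.42), so the order of Dvl1 and Wnt7b is not settled. From Dkk4 (12.4 ± 2.76) downwards, every tested gene overlapped its neighbour in the order. The nuclear partners were low, at 3.90 ± 0.778 for Lef1, 3.49 ± 1.26 for Tcf7l1 and 2.29 ± 1.33 CPM per kb for Tcf7l2, with overlapping ranges. The co-receptor genes were unequal, with Lrp5 at 14.6 to 26.5 times the level of Lrp6 per kb in vehicle and 12 to 24.7 times in PAM libraries.

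Among the ligands, 11 genes were members and 7 were tested. Wnt7b (ENSRNOG00000015750; Rnor_6.0 chromosome 7, 126420656 to 126465723, minus strand) encodes a ligand known for dendrite growth and for brain vessel formation. Its values were 137, 152, 140 and 153 CPM in vehicle 1 to 4 and 95.6, 88.7, 108 and 124 CPM in PAM 1 to 4. Every PAM library lay below every vehicle library. Wnt7b fell to 0.712 times its vehicle level, a log2 fold change of -0.49 ± 0.12 (SE; Benjamini-Hochberg adjusted p = 0.00694, edgeR). The pan-neuronal and excitatory neuron marker sums given above were also lower in every PAM library. Their part in this fall, and in those of Porcn, Lrp5 and Apc below, was not tested.

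Wnt7a, its close relative, promotes presynaptic assembly. It was at 25, 39.6, 32.2 and 44.0 in vehicle and 44.5, 44.8, 59.1 and 51.9 CPM in PAM libraries. All PAM libraries were higher than all vehicle libraries. Its log2 fold change of 0.50 ± 0.18 did not pass (Benjamini-Hochberg adjusted p = 0.0564, edgeR, 95% interval 0.15 to 0.86). DESeq2 put it at an adjusted p of 0.0494, and it passed in 7 of 17 alternatives (0.0367 to 0.179).

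Wnt8b (ENSRNOG00000013817; chromosome 1, 264260505 to 264264302, plus strand) is a ligand of the embryonic cortical hem, the signalling centre beside the hippocampal primordium. It had 13, 4, 8 and 10 counts in vehicle and 53, 36, 38 and 21 in PAM libraries, or 3.96, 1.10, 2.50 and 3.24 CPM against 12.2, 7.68, 10.4 and 7.57 CPM. The groups did not overlap, and Wnt8b rose 3.52-fold (log2 fold change 1.81 ± 0.41, Benjamini-Hochberg adjusted p = 0.00432, edgeR). It reached the filter's level in 2 of 4 vehicle and 4 of 4 PAM libraries, so it entered the test through the libraries where it is high. The ependymal and dividing-cell marker sums given above were also higher in every PAM library, and their part in the Wnt8b difference was not tested.

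The other tested ligands did not pass. Wnt5a, which mostly acts outside the β-catenin branch, was at 13.7 ± 2.61 in vehicle and 17.6 ± 2.84 CPM in PAM libraries (log2 fold change 0.37, 95% interval -0.10 to 0.83). Wnt4 was at 6.81 ± 1.48 and 3.69 ± 1.42 CPM (-0.86, -1.64 to -0.07) with overlapping groups. Wnt2 and Wnt5b had intervals of -0.94 to 1.10 and -1.59 to 0.89. Wnt3, Wnt9a, Wnt10b and Wnt11 stayed under the filter, with at most 15 counts in a library for Wnt3 and at most 4 for the other 3.

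The make-up of the ligand pool is given as a description, formed after the values were seen and without a test. Summed over the 11 ligand genes, the level was 59.6 ± 4.78 CPM per kb in vehicle and 58.5 ± 5.91 in PAM libraries, with overlapping ranges. Within that sum Wnt7b held 64.9%, 61.0%, 63.4% and 62.4% in vehicle and 42.4%, 44.7%, 42.5% and 53.2% in PAM libraries. Wnt7a held 14.6% to 22.1% in vehicle and 24.3% to 28.8% in PAM libraries, and Wnt8b 1.18% to 5.0% and 8.68% to 14.5%. None of the 3 shares overlapped between groups. The ratio of Wnt7b to Wnt7a per kb was 2.82 to 4.45 in vehicle and 1.48 to 1.93 in PAM libraries.

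**Figure D2:**
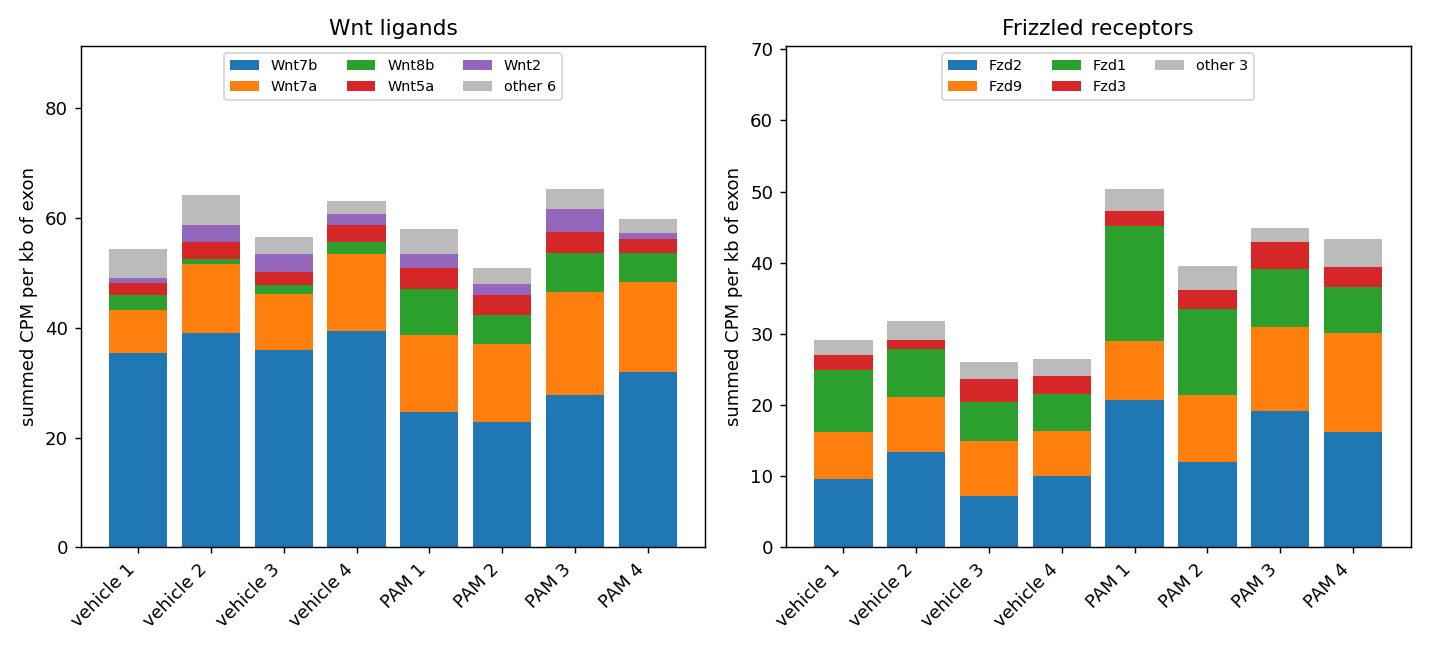
Stacked levels of the Wnt ligand genes (left, 11 genes) and the Frizzled genes (right, 7 genes) in each library, as summed CPM per kilobase of exon. The ligand bars have a like height in both groups (51.0 to 65.3) with a smaller Wnt7b part in PAM libraries, and the Frizzled bars run from 26.1 to 31.8 in vehicle and from 39.6 to 50.3 in PAM libraries.

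Porcn (ENSRNOG00000004819; chromosome X, 15035569 to 15048440, plus strand), the acyltransferase on which ligand secretion depends, had the smallest p of all members. Its values were 91.8, 88.4, 101 and 111 in vehicle and 59.5, 51.0, 67.1 and 66.3 CPM in PAM libraries. The groups did not overlap, and Porcn fell to 0.621 times its vehicle level (log2 fold change -0.69 ± 0.13, Benjamini-Hochberg adjusted p = 0.000975, edgeR). Wls, the carrier that takes acylated Wnt proteins to the cell surface and is no member, rose in the same libraries, from 27.7 ± 4.51 to 43.3 ± 7.91 CPM (log2 fold change 0.65 ± 0.18, adjusted p = 0.0166 by edgeR). The Wls call ended without vehicle 1 and without PAM 1.

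**Figure D3:**
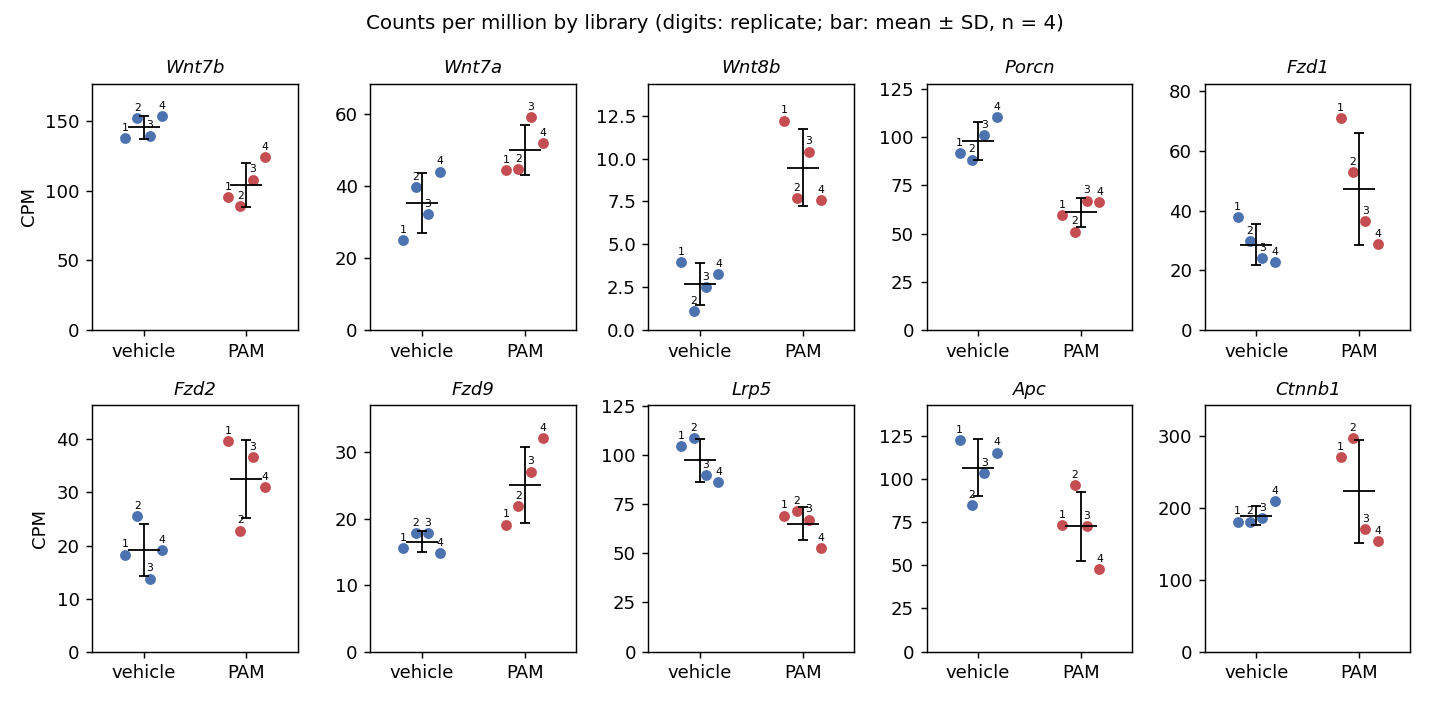
CPM of 10 Wnt pathway genes in each library, with the replicate number beside each point and black bars for the mean ± SD (n = 4). Wnt7b, Porcn and Lrp5 lie lower and Wnt8b, Wnt7a and Fzd9 higher in every PAM library than in any vehicle library, whereas Ctnnb1 splits into PAM 1 and PAM 2 above and PAM 3 and PAM 4 below the vehicle libraries.

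Frizzled receptors had 7 member genes, 6 of them tested, of which Fzd1 and Fzd2 rose, where 9.0% of all genes tested rose. With 6 genes tested, nothing about the family is drawn from this count. Fzd2 (ENSRNOG00000021962; chromosome 10, 90550147 to 90552057, plus strand) was at 18.3, 25.6, 13.8 and 19.1 in vehicle and 39.6, 22.8, 36.7 and 31.0 CPM in PAM libraries. PAM 2 lay below vehicle 2, and the other 3 PAM libraries lay above all vehicle libraries. The log2 fold change was 0.75 ± 0.22 (1.69-fold, Benjamini-Hochberg adjusted p = 0.0227, edgeR). The call ended without vehicle 1, 3 or 4 and without PAM 1 or 3, with adjusted p values of 0.00542 to 0.0833 over the 8 fits that left out 1 library.

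Fzd1 (ENSRNOG00000016242; chromosome 4, 26470864 to 26475262, plus strand) was at 37.8, 29.7, 24.1 and 22.6 in vehicle and 71.0, 52.9, 36.4 and 28.8 CPM in PAM libraries. Only PAM 1 and PAM 2 exceeded all vehicle libraries. Fzd1 rose 1.67-fold (log2 fold change 0.74 ± 0.24, Benjamini-Hochberg adjusted p = 0.0415, edgeR). Limma-voom gave an adjusted p of 0.0547, and the call also ended without vehicle 2, 3 or 4 and without PAM 1 or 2 (0.00282 to 0.178 over the fits without 1 library). With both PAM 3 and PAM 4 left out its log2 fold change was 1.12. Those are the PAM libraries where Fzd1 was lowest, so their omission raises the value in advance and lends the call no support.

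Fzd9, a receptor of hippocampal progenitors and neurons, was at 15.5, 17.9, 17.8 and 14.9 in vehicle and 19.1, 22.0, 27.1 and 32.1 CPM in PAM libraries. The groups did not overlap, yet the log2 fold change of 0.59 ± 0.21 did not pass (Benjamini-Hochberg adjusted p = 0.0624, edgeR, range 0.0431 to 0.369 over 17 alternatives). Fzd6, with 4 to 18 counts in vehicle and 14 to 28 in PAM libraries, had a log2 fold change of 1.00 ± 0.49 that did not pass either. It passed only without vehicle 1 (adjusted p = 0.0382, edgeR), the vehicle library where Fzd6 was highest. Omission of that library raises the value in advance, so that fit cannot show that Fzd6 rose. Fzd6 reached the filter's level in 1 vehicle and 4 PAM libraries. Fzd3 (0.31, 95% interval -0.39 to 1.01) and Fzd4 (-0.48, -1.31 to 0.34) overlapped between groups. Fzd7 stayed under the filter, with 0 to 9 counts in vehicle and 1 to 20 in PAM libraries.

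Summed over the 7 Frizzled genes the level was 29.2, 31.8, 26.1 and 26.4 CPM per kb in vehicle and 50.3, 39.6, 44.8 and 43.4 in PAM libraries. The sums did not overlap, and the share of each of the 3 main genes did: Fzd2 held 27.6% to 42.2% in vehicle and 30.2% to 42.8% in PAM libraries, Fzd9 23.0% to 29.5% and 16.4% to 32.0%, and Fzd1 19.5% to 29.4% and 15.1% to 32.1%. Within the PAM group Fzd1 was highest in PAM 1 and Fzd9 in PAM 4. This sum was also formed after the values were seen and carries no test. Astrocyte and ependymal marker sums were higher in the same libraries, as given above, and their part was not tested.

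The co-receptor gene Lrp5 (ENSRNOG00000015911; chromosome 1, 218816841 to 218920094, minus strand) went the other way from Fzd1 and Fzd2. It was at 105, 108, 89.9 and 86.4 in vehicle and 69.1, 71.4, 67.1 and 52.6 CPM in PAM libraries, with no overlap. Lrp5 fell to 0.671 times its vehicle level (log2 fold change -0.58 ± 0.13, Benjamini-Hochberg adjusted p = 0.00435, edgeR). Lrp6, at 6.05 ± 2.10 and 3.99 ± 1.76 CPM, did not pass (log2 fold change -0.57, 95% interval -1.40 to 0.25).

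R-spondins strengthen Wnt signals by protecting Frizzled from degradation. Rspo2 was at 7.93, 8.81, 13.5 and 9.71 in vehicle and 20.7, 16.0, 12.6 and 13.7 CPM in PAM libraries, and PAM 3 lay below vehicle 3. Its log2 fold change of 0.67 ± 0.27 did not pass (Benjamini-Hochberg adjusted p = 0.091, edgeR). It passed only with PAM 3 and PAM 4 left out (0.89). Those are the PAM libraries where Rspo2 was lowest, so that fit cannot show that it rose. Rspo3 was at 9.75 ± 0.986 and 11.5 ± 1.92 CPM, and Rspo1 had at most 7 counts in a library.

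Secreted antagonists bind the ligands (Sfrp) or the co-receptors (Dkk). Of the 4 tested, 0 passed edgeR, 0 had an unadjusted p under 0.05 and 0 passed DESeq2. With 18.9% of all genes past the edgeR test, a count of 0 among 4 genes says little about this role. Dkk3, the most abundant and a divergent member of its family, was at 91.0 ± 15.2 in vehicle and 99.8 ± 18.5 CPM in PAM libraries (log2 fold change 0.14, 95% interval -0.15 to 0.43). Sfrp1 was at 17.1 ± 3.51 and 17.1 ± 0.425 CPM, with an interval of -0.43 to 0.43. Sfrp2 (0.53, -0.10 to 1.16) and Dkk4 (-0.30, -0.81 to 0.20) had wider intervals, and Sfrp4 had at most 9 counts in a library.

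**Figure D4:**
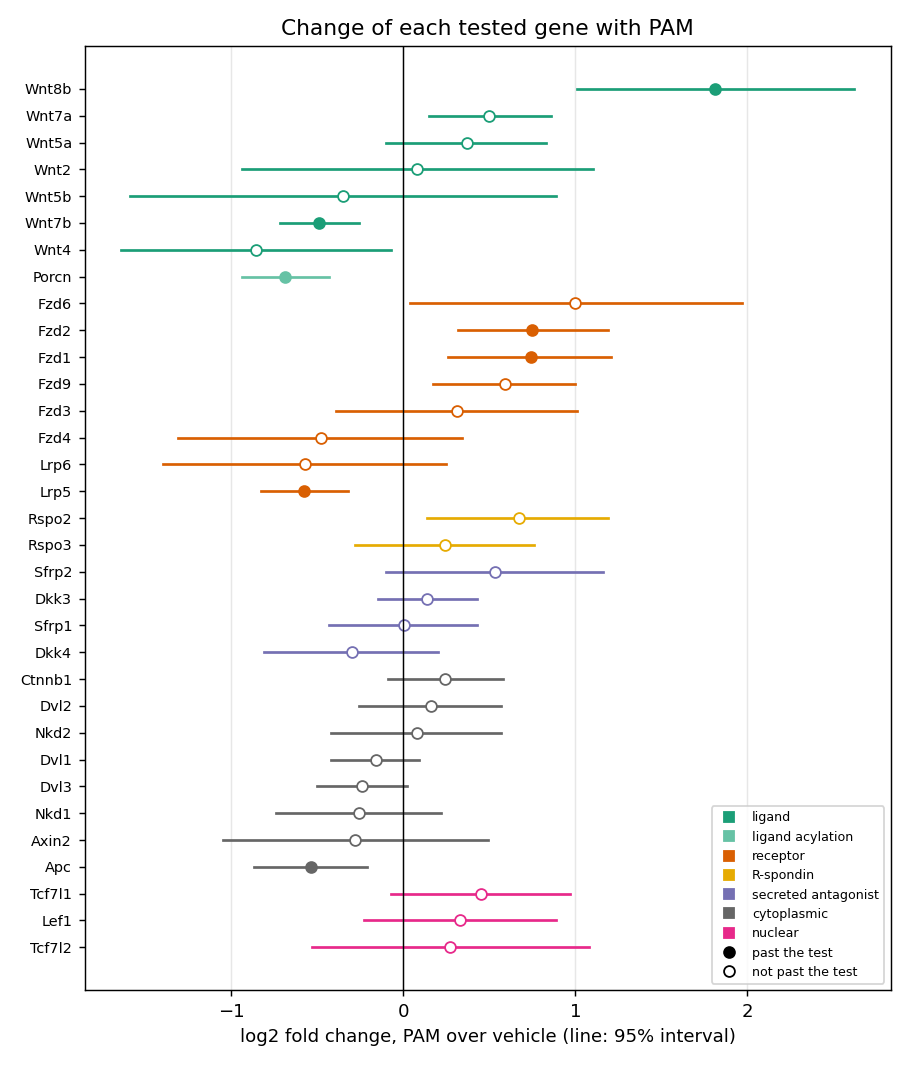
Log2 fold change (PAM over vehicle) of each of the 33 tested genes, grouped by role, with lines for the 95% interval and filled points for the 7 genes past the test. Values of ligands and receptors run in both directions, from -0.86 for Wnt4, not past the test, to 1.81 for Wnt8b. The secreted antagonists (4 genes), nuclear factors (3 genes) and R-spondins (2 genes) hold no filled point. With 18.9% of all genes past the test, this says little for so few genes.

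Inside the cell, 8 members were tested and 1 changed (12.5%, against 18.9% of all genes). Apc (ENSRNOG00000020423; chromosome 18, 27047382 to 27105531, plus strand), the scaffold of the destruction complex that also binds microtubules, was at 123, 84.8, 103 and 115 in vehicle and 73.3, 96.6, 72.6 and 47.6 CPM in PAM libraries. PAM 2 lay above vehicle 2, and the other PAM libraries lay below all vehicle libraries. Apc fell to 0.687 times its vehicle level (log2 fold change -0.54 ± 0.17, Benjamini-Hochberg adjusted p = 0.0323, edgeR). With 8834 exonic bases Apc is the longest member, and PAM 4, where it was lowest, has the steepest fall of counts with length. With that trend removed its log2 fold change was -0.40 (adjusted p = 0.0471), and without both PAM 3 and PAM 4 it was -0.31 (adjusted p = 0.10). The call also ended without vehicle 1, 3 or 4 and without PAM 1 or 3 (0.00326 to 0.112 over the fits without 1 library).

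Ctnnb1, which encodes β-catenin, was at 181, 181, 186 and 210 in vehicle and 271, 298, 171 and 154 CPM in PAM libraries. PAM 1 and PAM 2 were higher than every vehicle library, and PAM 3 and PAM 4 lower. Its log2 fold change of 0.24 ± 0.17 did not pass (Benjamini-Hochberg adjusted p = 0.356, edgeR, 95% interval -0.09 to 0.58). It was 0.60 with PAM 3 and PAM 4 left out, the PAM libraries where Ctnnb1 was lowest. Their omission raises the value in advance, so that fit cannot show that Ctnnb1 rose. Removal of the length trend from all libraries gave a log2 fold change of 0.23 (adjusted p = 0.312, edgeR).

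The Dishevelled genes did not pass, with log2 fold changes of -0.16 for Dvl1 (95% interval -0.42 to 0.09), 0.16 for Dvl2 (-0.26 to 0.57) and -0.24 for Dvl3 (-0.50 to 0.02). Dvl1 held 46.0% to 54.2% of the summed Dvl level per kb in vehicle and 43.7% to 57.5% in PAM libraries. Nkd1 and Nkd2, which bind Dishevelled and dampen the signal, had log2 fold changes of -0.26 and 0.08. The interval was -0.74 to 0.22 for Nkd1 and -0.42 to 0.57 for Nkd2.

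Axin2, Nkd1, Lef1 and Tcf7 are widely used as readouts of β-catenin activity, because β-catenin and Tcf act on their genes. Axin2 was at 12.5, 14.3, 3.76 and 12.9 in vehicle and 12.2, 12.2, 6.84 and 3.97 CPM in PAM libraries. One vehicle library and 2 PAM libraries were low, and the log2 fold change of -0.28 ± 0.39 did not pass (95% interval -1.05 to 0.49). Nkd1 was at 16.2, 12.7, 19.4 and 15.2 in vehicle and 13.1, 16.4, 12.9 and 10.1 CPM in PAM libraries. Lef1 was at 12.5, 9.36, 10.6 and 7.77 in vehicle and 10.1, 10.2, 12.9 and 18.0 CPM in PAM libraries (log2 fold change 0.33 ± 0.28, -0.23 to 0.89), and Tcf7 had at most 5 counts in a library.

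Promoters of 28 of the 41 member symbols were found in the RefSeq table (GRCr8, 250 bases before to 50 bases after the annotated start) and searched on both strands for the Tcf/Lef core CTTTGA. It was present in 4 of them (14.3%), against 16.1% of all 33469 promoters of that length, and the longer form CTTTGATC in 0 of them, against 0.771% of all. Of the 7 genes past the test, 4 had a promoter entry and 0 of these held the core. The 4 with the core were Axin2, Nkd1, Fzd7 and Tcf7. A match is a description of letters and not a binding site, and its lack says nothing of the factor. The sequences of Axin2 (chr10:94398535-94398834, plus strand) and Nkd1 (chr19:34722797-34723096, minus strand) are shown because these readout genes hold the core, which stands in capitals, and that of Wnt8b (chr1:253303119-253303418, plus strand) because it had the largest change and holds none. This choice was made after their values were seen. Of the other readout genes, Tcf7 holds the core but stayed under the filter and is not shown, and Lef1 holds none.
Axin2: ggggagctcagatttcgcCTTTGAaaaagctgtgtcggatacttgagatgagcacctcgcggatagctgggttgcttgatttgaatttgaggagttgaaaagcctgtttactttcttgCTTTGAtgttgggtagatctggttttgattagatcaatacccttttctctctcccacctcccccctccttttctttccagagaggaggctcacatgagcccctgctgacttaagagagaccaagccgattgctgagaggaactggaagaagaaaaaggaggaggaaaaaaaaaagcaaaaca
Nkd1: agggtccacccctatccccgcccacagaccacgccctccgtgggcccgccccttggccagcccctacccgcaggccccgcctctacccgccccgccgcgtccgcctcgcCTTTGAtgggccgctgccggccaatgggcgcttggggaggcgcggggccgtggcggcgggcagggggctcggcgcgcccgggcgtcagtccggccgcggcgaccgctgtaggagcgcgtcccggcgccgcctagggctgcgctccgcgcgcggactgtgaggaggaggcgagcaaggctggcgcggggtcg
Wnt8b: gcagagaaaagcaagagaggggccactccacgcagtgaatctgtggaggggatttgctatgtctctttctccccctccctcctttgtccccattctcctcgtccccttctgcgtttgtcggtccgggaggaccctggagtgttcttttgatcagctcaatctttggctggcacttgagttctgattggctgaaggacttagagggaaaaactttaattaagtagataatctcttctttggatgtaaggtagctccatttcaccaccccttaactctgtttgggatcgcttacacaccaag
The core starts at bases -232 and -132 from the annotated start in Axin2 and at base -141 in Nkd1.

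Of the other nuclear members, Tcf7l1, mostly a repressor of the target genes, was at 13.1 ± 4.72 in vehicle and 17.9 ± 2.71 CPM in PAM libraries (log2 fold change 0.45, 95% interval -0.07 to 0.97). Tcf7l2 was at 7.998 ± 4.63 and 9.51 ± 3.53 CPM (0.27, -0.53 to 1.08). Of the 3 nuclear members tested 0 passed edgeR, 0 had an unadjusted p under 0.05 and 0 passed DESeq2. With 18.9% of all genes past the edgeR test, a count of 0 among 3 genes says little about this role.

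Pathway genes outside the member rule were read from lists by role. Of 8 tested genes for ligand secretion and handling, 3 rose and 0 fell (37.5% called, against 18.9% of all genes; median log2 fold change 0.62). Besides Wls these were Apcdd1, an inhibitor at the cell surface (17.4 ± 3.71 to 30.8 ± 2.88 CPM, 0.82 ± 0.20), and Frzb, a Wnt-binding antagonist related to Sfrp (5.28 ± 4.21 to 12.8 ± 2.61 CPM, 1.27 ± 0.42). Frzb reached the filter's level in 2 of 4 vehicle and 4 of 4 PAM libraries, so it too entered the test through the libraries where it is high. The Frzb call ended without vehicle 1, 2 or 3, without PAM 1 or 3, and with PAM 3 and PAM 4 both omitted. Of 9 tested co-receptor and receptor turnover genes, 1 rose, Lrp4 (0.63 ± 0.20), and 0 fell (11.1%, against 18.9% of all genes), and this call ended without any 1 of the vehicle libraries and without PAM 1 or 2.

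Of 24 tested genes of the destruction complex and cytoplasmic regulators, 1 rose and 5 fell (25% called, against 18.9% of all genes; median -0.20). The kinase gene Gsk3a fell from 342 ± 27.1 to 227 ± 35.7 CPM (-0.59 ± 0.12, Benjamini-Hochberg adjusted p = 0.00152, edgeR), the phosphatase subunit gene Ppp2r5b by 0.55 ± 0.12 and Dact3, which antagonises Dishevelled, by 0.54 ± 0.12 on the log2 scale. Dixdc1 (-0.64) and Btrc (-0.39), a ligase subunit that recognises β-catenin, also fell, and Ccdc88c (0.64) rose. The last 3 calls depended on which libraries entered: Dixdc1 lost its call without vehicle 1 or 3, Btrc without any 1 vehicle library, without both PAM 3 and PAM 4 and with the length trend removed, and Ccdc88c without vehicle 2, 3 or 4, without PAM 1 or 2, with no low-count filter and with the replicate number as a block.

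Among 23 nuclear partners 1 rose and 1 fell (8.7%, against 18.9% of all genes; median -0.19). The co-repressor gene Tle2, between 16.6 and 22.3 CPM in the vehicle and between 6.85 and 9.58 CPM in the PAM libraries, fell (-1.24 ± 0.25, Benjamini-Hochberg adjusted p = 0.00152, edgeR). Its relative Tle3 rose by 0.43 ± 0.14 on the log2 scale, a call that ended without vehicle 2, 3 or 4 and without PAM 1, 2 or 3. Of 25 tested genes of the polarity and calcium branches 1 rose and 4 fell (20.0%, near the 18.9% of all genes; median -0.25). Among those that fell were Camk2b, a calcium-dependent kinase gene, by 0.49 ± 0.09, Prkcb by 0.57 ± 0.15 and the polarity cadherin gene Celsr2 by 0.41 ± 0.10 on the log2 scale, and Vangl1 rose by 0.91 ± 0.27. Excitatory neuron markers, with sums of 1390 to 1640 CPM in vehicle against 899 to 1020 CPM with PAM, were lower in the same libraries as the kinase genes Camk2b and Prkcb, and their part was not tested. Celsr2 did not pass with the length trend removed (-0.23), and Vangl1 did not pass without vehicle 2 or 3, without PAM 1 or 2, or with the replicate number as a block. Of 9 tested cadherin and catenin partners 1 rose, Ctnna1 (0.50), and 2 fell, Ctnnd2 (-0.45) and Cdh8 (-0.65), with a median of -0.36 (33.3% called, against 18.9% of all genes), and each of these 3 calls ended in at least 2 of the fits without 1 library. Cdh8 passed in 6 of 17 alternatives.

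Of 24 tested genes often used as β-catenin targets, a list of which Axin2, Nkd1, Lef1 and Tcf7 are also members, 8 rose and 2 fell (41.7%, against 18.9% of all genes; median 0.38). Tnfrsf19, a receptor of progenitors and glia, rose from 14.4 ± 3.35 to 36.6 ± 7.56 CPM (log2 fold change 1.35 ± 0.22, Benjamini-Hochberg adjusted p = 0.000228, edgeR). Apcdd1 rose as given above, and Sox2 (0.41 ± 0.12) and Bambi (1.14 ± 0.33) rose, while the glucose transporter gene Slc2a1 (-0.43 ± 0.11) and Neurod1 (-1.44 ± 0.43) fell. Sox2 lost its call without vehicle 2, 3 or 4, Bambi without vehicle 2 or 3 or PAM 1, Slc2a1 without vehicle 2, and Neurod1 without vehicle 1, 3 or 4 and without PAM 3, alone or together with PAM 4. Tnfrsf19 and Sox2 are also expressed by glia and progenitors, whose markers were higher in PAM libraries as given above, and their part in these counts was not tested. The list was read by its count and median alone, and nothing particular to it is drawn from them.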

How the data were processed

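Counts per gene for 8 libraries were deposited by the authors in the layout of featureCounts, with rat Ensembl identifiers and exonic lengths, per the file headers. The submitters' processing notes name Rnor_6.0, STAR, featureCounts, DESeq and DESeq2 and no versions. The annotation release, strand setting and handling of multi-mapped reads were not given in the sources used here. The deposited comparison table, made by the authors, supplied the symbols. It holds a signal value per group (mean level), a log2 fold change and p-values, per the file headers.

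Genes passing filterByExpr (11740; at least 2.88 CPM in 4 libraries) were scaled by TMM and tested in R 4.3.3 with edgeR 4.0.16 (quasi-likelihood test, robust dispersion, group as the only term, Benjamini-Hochberg adjustment over all genes). Each SE was taken as |log2 fold change| over the root of the F statistic, and 95% intervals span 1.96 SE. These intervals are approximate, somewhat narrower than the test implies, and not adjusted for the number of genes. An interval can thus exclude 0 for a gene that did not pass: that of Fzd6 was 0.04 to 1.97 at an unadjusted p of 0.056 (edgeR). Levels between genes use CPM per kb of exon. The limit set by a count of 0 (3 counts in a library) was between 0.683 and 1.013 CPM, counting error only. The procedure was tested on simulated counts. Alternatives were DESeq2 1.42.0, limma-voom (limma 3.58.1), RLE and upper-quartile scaling, 2 other low-count filters, the replicate number as a block, omission of each library, omission of PAM 3 and PAM 4, and removal of each library's length trend (loess, span 0.5).

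The members and lists were chosen with earlier results of these data known. Every tested member is named. Of the other pathway lists (219 of 257 listed genes, markers included, matched the table) at most 6 genes past the test are named by smallest p, and 1 such gene of the polarity and calcium list is not reported here. Promoters were to be shown for genes past the test that hold the core, and none did, so those shown fall outside that rule. Markers of inhibitory neurons (8 tested, 1 rose, 2 fell), oligodendrocytes (10, 5, 1), choroid plexus (2, 1, 0), fibroblasts (7, 2, 0), endothelium (1, 1, 0), mural cells (3, 0, 0) and microglia (3, 0, 0) were read as well, and no matched marker was at 0 in every library. Markers without a row in the deposited comparison table, among them Foxj1, Snap25, Cx3cr1, Otx2 and Pecam1, were not matched, so their counts were not read.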

Additional observations from a re-analysis of the deposited data

Results flagged for a closer look

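In 5 of 66 groups of 4 libraries checked (33 genes, 2 groups each), 1 library stood so far from the other 3 that its gap took more of the group's range than Dixon's 95% critical value, and chance flags about 1 in 20 such groups. Ctnnb1 was at 210 CPM in vehicle 4, against 181 to 186 in the other vehicle libraries. Dkk3 was at 114 CPM in vehicle 1, against 82.0 to 86.2. Nkd2 was at 13.2 CPM in vehicle 3, against 15.2 to 15.4. Wnt5a was at 13.3 CPM in PAM 4, against 18.6 to 19.4 in the other PAM libraries. Lrp6 was at 6.61 CPM in PAM 2, against 2.88 to 3.46. None of these 5 genes passed the test between groups with all libraries.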

How the results depend on the processing

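Porcn, Wnt8b, Lrp5 and Wnt7b passed in all 17 alternatives, though Wnt8b passed the low-count filter through the PAM libraries, where it is high. Over the 8 fits without 1 library, 1 to 3 members rose, 3 to 4 fell and 1527 to 2408 genes changed in all; the lone increase came without vehicle 3. With upper-quartile scaling 5 members rose, and without both PAM 3 and PAM 4 also 5. The latter fit leaves out the PAM libraries where Ctnnb1, Fzd1 and Rspo2 were lowest, so its count is no support for these increases. In the same PAM libraries Porcn and Wnt7b were nearest to the vehicle level, so that fit is no support for their falls either. DESeq2 called 4 increases and 4 decreases among the members. With the replicate number as a block (replicate block), 4 members rose, 4 fell and 2064 genes changed in all. Same-numbered libraries correlated at 0.052, -0.045, 0.068 and -0.06 in their deviations from the group means and none correlated best with its own number, so the numbers were not taken to pair the samples. Of 561 values of single members under alternatives, 515 kept their direction and their side of the threshold, 17 (3 genes) lost the call, 12 (5 genes) gained one and 17 (7 genes) changed sign without a call. Sign changes came with limma-voom (Nkd2 -0.02, Wnt5b 0.31), with no low-count filter (Sfrp1 -0.002), with a minimum mean of 1 CPM (Sfrp1 -0.0042), with the length trend removed (Wnt2 -0.02) and without both PAM 3 and PAM 4 (Axin2 0.17, Nkd2 -0.32, Wnt2 -0.03, Dkk4 0.01). Without 1 library the log2 fold change ran from -0.09 to 0.23 for Nkd2, -0.09 to 0.09 for Sfrp1, -0.04 to 0.63 for Tcf7l2 and -0.27 to 0.29 for Wnt2. The cause was not tested.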
